A study of Mus musculus with 8 samples.

Results

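Imprinted genes are read from one parental copy only, and a set of them that acts on growth was followed here in the livers of newborn mice that lack myosin Vb. The set holds 10 genes, chosen by gene symbol: the noncoding RNAs H19, Meg3, Rian and Mirg, the membrane and secreted protein gene Dlk1, the zinc finger genes Plagl1 and Peg3, and Mest, Cdkn1c and Grb10. Each matched 1 row of the 48440 genes in the count table, and all 10 were among the 18274 genes with enough counts to be tested. The data are RNA sequencing read counts from whole liver of CD1 mice, an outbred strain, aged between 3 and 8 days. The 4 knockout livers (animals 275, 276, 277 and 278) carried a germline deletion of Myo5b, which is lost from every cell and not only from hepatocytes. The 4 control livers (animals 279, 280, 281 and 282) came from littermates that were wildtype or heterozygous for the deletion, and the labels do not say which pup was which. They also give no age, sex or litter for the single pup, and the counts do not tell the parental copies apart, so the part of age in any difference was not tested and loss of imprinting was not measured.

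In an imprinted domain, a stretch of DNA methylated in only one germ line sets which parental copy of each neighbouring gene is used. H19 and Igf2 share enhancers, with H19 read from the maternal and Igf2 from the paternal chromosome. In the Dlk1-Dio3 domain, Dlk1 and Rtl1 are read from the paternal chromosome, and Meg3, Rian and Mirg, which host small nucleolar RNAs and microRNAs, from the maternal one. Peg3, Mest and Plagl1 are paternally expressed, Cdkn1c and, in the liver, Grb10 maternally. Many of these genes are highly expressed in fetal organs and are turned down after birth as growth slows, which is why they are often described as one co-regulated group.

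Library totals ran from 14228268 to 18398039 counts. Values are given as CPM, counts scaled to a common library size with TMM factors, with SD over 4 livers. Changes are log2 fold changes of knockout over control from edgeR's quasi-likelihood test, with Benjamini-Hochberg adjusted p over all tested genes and a threshold of 0.05. Over all tested genes, 20.7% were called, 9.27% higher and 11.4% lower in knockout livers (1694 and 2088 genes). Scaling by library size alone gave 2300 higher and 1696 lower. The median over all of them was 0.0093 on the log2 scale. Myo5b itself was at 49.3 ± 7.06 CPM in knockout and 133 ± 33.1 CPM in control livers. Reads of Myo5b thus remained in the knockouts, the counts alone do not show a complete loss, and why reads remained was not tested. Markers of blood-forming cells moved with genotype: all 19 erythroid genes measured fell (median log2 fold change -1.84), their summed level being 2278 to 4648 CPM in knockout and 9246 to 12121 CPM in control livers, and none of them was at 0. All 12 cell cycle genes fell too (median -1.25), with summed levels of 852 to 1236 CPM against 2198 to 2829 CPM. In whole liver, fewer cells of a type and less RNA per cell cannot be told apart.

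Of the 10 genes, 6 fell in knockout livers (Cdkn1c, Dlk1, Rian, Meg3, Mest and Mirg), 1 rose (Peg3), and 3 did not pass the test (H19, Plagl1 and Grb10). Their median log2 fold change was -0.63, and the values ran from -1.67 for Cdkn1c to 0.996 for Peg3. The 4 knockout values all lay below the 4 control values for 5 genes and above them for 1, so that 6 of the 10 were separated. Of all tested genes, 23.6% were separated, 12.8% below and 10.8% above. Of the 6 maternally expressed genes, 4 fell and 2 did not pass the test. Of the 4 paternally expressed genes, 2 fell and 1 rose.

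**Figure D1:**
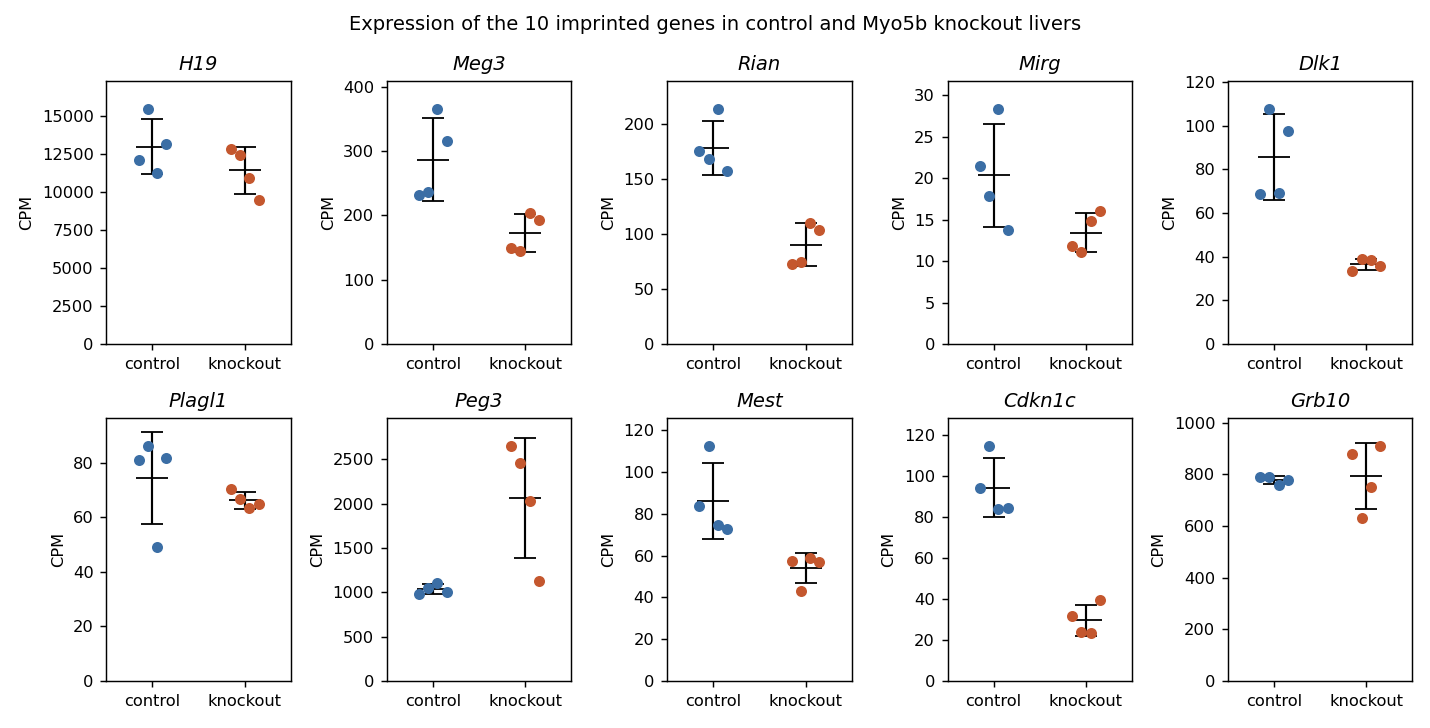
CPM of each of the 10 genes (vertical axis, linear, from 0) in 4 control and 4 knockout livers; each point is 1 liver, and the bars give the mean and SD. Cdkn1c, Dlk1, Rian, Meg3 and Mest lie lower in every knockout liver, Peg3 lies higher with a wide spread, and H19, Plagl1 and Grb10 overlap.

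Per length of exon, H19 stood far above the rest. Its control level was 5285 ± 739 CPM per kilobase of exon (SD over 4 livers), and only 7 genes of the table had a higher control mean in CPM. Grb10 (85.6 ± 1.59), Peg3 (77.7 ± 4.13) and Cdkn1c (46.2 ± 7.01) followed, each of these 3 levels apart from its neighbours in every control liver. Mest (21.8 ± 4.64), Meg3 (15.9 ± 3.58) and Dlk1 (15.1 ± 3.5 CPM per kilobase) overlapped in turn, as did Rian (9.79 ± 1.35) and Plagl1 (9.51 ± 2.17). Mirg was lowest, at 2.79 ± 0.847 CPM per kilobase. These lengths join the exons of all annotated isoforms.

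H19 (chromosome 7, 142575529 to 142578143, minus strand, GRCm38) makes a noncoding RNA that acts as a brake on fetal growth and is the precursor of miR-675. It took between 0.965% and 1.45% of all counts in each liver. Control livers 279, 280, 281 and 282 had 12098, 15463, 11270.5 and 13174 CPM, and knockout livers 275, 276, 277 and 278 had 12869.5, 12451, 10943 and 9465 CPM. The groups overlap: 275 and 276 lay within the control range, 277 and 278 below it. The log2 fold change was -0.19 (SE 0.11, adjusted p = 0.282), and over all alternatives it stayed between -0.25 and -0.094 without passing the test. Igf2, its partner gene that encodes a fetal growth hormone, was at 4052 ± 399 CPM in knockout and 4626 ± 681 CPM in control livers (log2 fold change -0.19, SE 0.11, adjusted p = 0.229). Of the 5723 exon bases of Igf2, 3596 are shared with Gm49394, a gene on the same strand. How reads in shared bases were counted is not given, which limits the level of Igf2 and its read ratio to H19. The microRNA's own row held 0 counts in all 8 libraries, so its level was not measured here, and the reads of H19 do not give it. Both arms of miR-675 (RefSeq, GRCm38.p6) are shown because H19 is their precursor. The hairpin lies within the H19 gene, at 142577064 to 142577147 in GENCODE M21, and the seed, bases 2 to 8, is in capitals and differs between the arms.
mmu-miR-675-5p: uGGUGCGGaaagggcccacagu
mmu-miR-675-3p: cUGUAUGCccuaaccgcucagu

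Within the Dlk1-Dio3 domain on chromosome 12, the paternally expressed Dlk1 and the maternally expressed Meg3, Rian and Mirg fell, while Dio3 did not pass the test. Counts at Rtl1, also a paternally expressed gene, fell too, but they cannot be assigned to the paternal or the maternal strand, as given below. Dlk1 (109452823 to 109463336, plus strand), a relative of the Notch ligands that marks hepatoblasts and restrains fat cell formation, fell most. It was at 68.6, 107, 69.1 and 97.4 CPM in controls 279 to 282 and at 33.6, 38.8, 38.5 and 35.7 CPM in knockouts 275 to 278. Every knockout liver lay at about one level, below the lowest control. The fall was 2.34-fold (log2 fold change -1.22, SE 0.14, adjusted p = 2.55e-05). It passed the test under all 16 alternatives, at -1.32 to -1.10.

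Meg3 (109541001 to 109571726, plus strand), a long noncoding RNA known as a growth suppressor in cultured cells, was at 231, 236, 365 and 315 CPM in controls and at 149, 145, 203 and 193 CPM in knockouts. No knockout reached the lowest control, and controls 281 and 282 stood above 279 and 280. Its log2 fold change was -0.73 (SE 0.17, adjusted p = 0.0135). Of the 18089 exon bases of Meg3, 1228 are shared with Gm26906 on the opposite strand, where reads cannot be assigned without strand. Rian (109603940 to 109661716, plus strand), the host of a row of small nucleolar RNAs, was at 175, 168, 214 and 157 CPM in controls and at 72.5, 75.0, 110 and 104 CPM in knockouts (log2 fold change -0.98, SE 0.15, adjusted p = 6.55e-04). Here too the groups did not overlap, and knockouts 275 and 276 were the lowest livers for both RNAs.

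Mirg (109729764 to 109749460, plus strand), the host of the domain's last microRNA group, was at 21.5, 17.9, 28.3 and 13.7 CPM in controls and at 11.9, 11.1, 14.9 and 16.0 CPM in knockouts. The groups overlap, since control 282 lay below knockouts 277 and 278. Its log2 fold change of -0.599 (SE 0.20, adjusted p = 0.0440) passed the test narrowly. The call was lost without knockout 275, 276 or 277 or control 279, 280 or 281 (adjusted p of 0.0573 to 0.164), the log2 fold change being -0.40 without control 281. It was also lost with upper-quartile scaling (adjusted p = 0.0525), library size alone (0.0724), limma-voom (0.0501) and dispersion that was not robust (0.0524).

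Rtl1 (109589193 to 109600330, minus strand), a paternally expressed gene derived from a retrotransposon and needed in the placenta, was at 18.2, 18.3, 32.2 and 24.8 CPM in controls and at 11.8, 11.1, 16.9 and 16.3 CPM in knockouts (log2 fold change -0.74, SE 0.20, adjusted p = 0.0155). The call was lost without knockout 275 (-0.66) or 276 (-0.65) or control 281 (-0.54). The strand setting of the counting is not given in the sources used here, and microRNA genes lie on the other strand of Rtl1's exon, so reads of the paternal and maternal transcripts cannot be told apart. Dio3, at the far end, encodes the enzyme that inactivates thyroid hormone. It was at 0.754 ± 0.278 CPM in knockout and 0.465 ± 0.195 CPM in control livers (4 to 18 counts per library; log2 fold change 0.695, SE 0.57, adjusted p = 0.441). Of the domain's 6 tested genes, 5 fell and Dio3 did not pass the test. Ins2 and Begain, at the edges of the H19 and Dlk1 domains, were not tested: Ins2 had no count in any library, and Begain too few. Of the 67 microRNA rows between Dlk1 and Dio3, 45 had a count, with at most 28 in any library.

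Of the 10 genes, 8 have a promoter window in the RefSeq table (GRCm38.p6; 250 bases before to 50 bases after the start). The windows of Meg3 and Dlk1 are shown because these neighbours fell together, and that of Peg3 because it rose. Each window of 300 bases was searched on both strands for TGACGTCA (the cyclic AMP response element), GGGGCCCC (the site bound by PLAGL1), CCATNTT (a YY1 core) and TATAAA. Capitals mark TGACGTCA and GGGGCCCC. TGACGTCA occurs in 1.79% of all 32817 windows, GGGGCCCC in 1.07%, CCATNTT in 16.1% and TATAAA in 13.6%. Meg3 has 1 match to TGACGTCA, at -57 to -50 from the start, and 2 to TATAAA, 1 on each strand of the same stretch. Peg3 has 1 match to TGACGTCA, at -178 to -171, and 1 to GGGGCCCC, at -201 to -194. The Dlk1 window has none of the 4. The Meg3 and Peg3 windows thus share an 8-letter word, while Meg3 fell and Peg3 rose.
Dlk1, chr12:109452573-109452872, plus strand: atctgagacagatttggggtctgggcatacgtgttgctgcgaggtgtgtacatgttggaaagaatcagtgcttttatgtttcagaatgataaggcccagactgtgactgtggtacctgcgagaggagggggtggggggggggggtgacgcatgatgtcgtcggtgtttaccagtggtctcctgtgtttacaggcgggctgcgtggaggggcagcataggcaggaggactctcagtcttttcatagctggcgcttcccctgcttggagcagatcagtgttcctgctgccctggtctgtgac
Meg3, chr12:109540746-109541045, plus strand: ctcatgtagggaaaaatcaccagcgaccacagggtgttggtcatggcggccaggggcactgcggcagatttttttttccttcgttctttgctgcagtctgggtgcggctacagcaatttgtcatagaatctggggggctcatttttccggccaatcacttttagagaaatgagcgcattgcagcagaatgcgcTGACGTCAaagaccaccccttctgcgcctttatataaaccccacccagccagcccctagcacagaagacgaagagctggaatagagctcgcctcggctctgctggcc
Peg3, chr7:6730370-6730669, minus strand: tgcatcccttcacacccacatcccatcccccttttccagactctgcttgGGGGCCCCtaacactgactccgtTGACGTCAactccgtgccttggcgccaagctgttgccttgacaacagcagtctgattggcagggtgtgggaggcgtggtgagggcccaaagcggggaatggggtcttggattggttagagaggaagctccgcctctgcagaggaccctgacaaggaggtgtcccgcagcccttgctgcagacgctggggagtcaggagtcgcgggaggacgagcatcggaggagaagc

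Peg3 (chromosome 7, 6703892 to 6730431, minus strand), a zinc finger gene that acts on growth and on maternal behaviour, was the one gene of the 10 that rose. Controls 279 to 282 had 983, 1047, 1108 and 1004 CPM, within 1.13-fold of each other. Knockouts 275 to 278 had 2650, 2459, 2027 and 1127 CPM, a spread of 2.35-fold. Knockouts 275, 276 and 277 thus stood well above the controls, and knockout 278 just above the highest of them. The log2 fold change was 0.996 (SE 0.25, adjusted p = 0.0277). Without knockout 278 it was 1.199 (adjusted p = 1.55e-07). The call was lost without any other single library (knockout 275, 276 or 277, or control 279, 280, 281 or 282; log2 fold change 0.854 to 1.03, adjusted p of 0.0510 to 0.0758) and with no low-count filter (0.0762). Knockout 278 also had the highest summed erythroid markers of the knockouts (4648 CPM against 2278 to 3163 CPM in the others); their part in the result was not tested.

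The neighbours of Peg3 moved with it. Usp29, a ubiquitin protease gene read in the opposite direction, starts 147 bases from Peg3, so that the printed window holds both starts. It was at 8.51, 6.44, 4.81 and 6.94 CPM in controls and at 17.2, 12.7, 14.7 and 6.37 CPM in knockouts (log2 fold change 0.94, SE 0.27, adjusted p = 0.0232). Its call was lost without knockout 275, 276 or 277 or control 280, 281 or 282 (0.758 to 0.954, adjusted p of 0.0551 to 0.0744). Zim1, a zinc finger gene just downstream that is read from the maternal chromosome, was at 24.0, 26.9, 23.1 and 35.3 CPM in controls and at 159, 112, 82.2 and 37.4 CPM in knockouts. This was the largest rise among the imprinted genes tested (log2 fold change 1.84, SE 0.45, adjusted p = 0.0337), and it was 2.10 without knockout 278. Its call too was lost without any single library other than knockout 278 (1.497 to 1.98, adjusted p of 0.0586 to 0.0951) and with no low-count filter (0.0578). For all 3 genes knockout 275 was the highest liver and knockout 278 the lowest of the knockouts, although Zim1 is maternally and Peg3 and Usp29 are paternally expressed. Zim3 had no count, and Zfp264 too few to be tested.

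**Figure D2:**
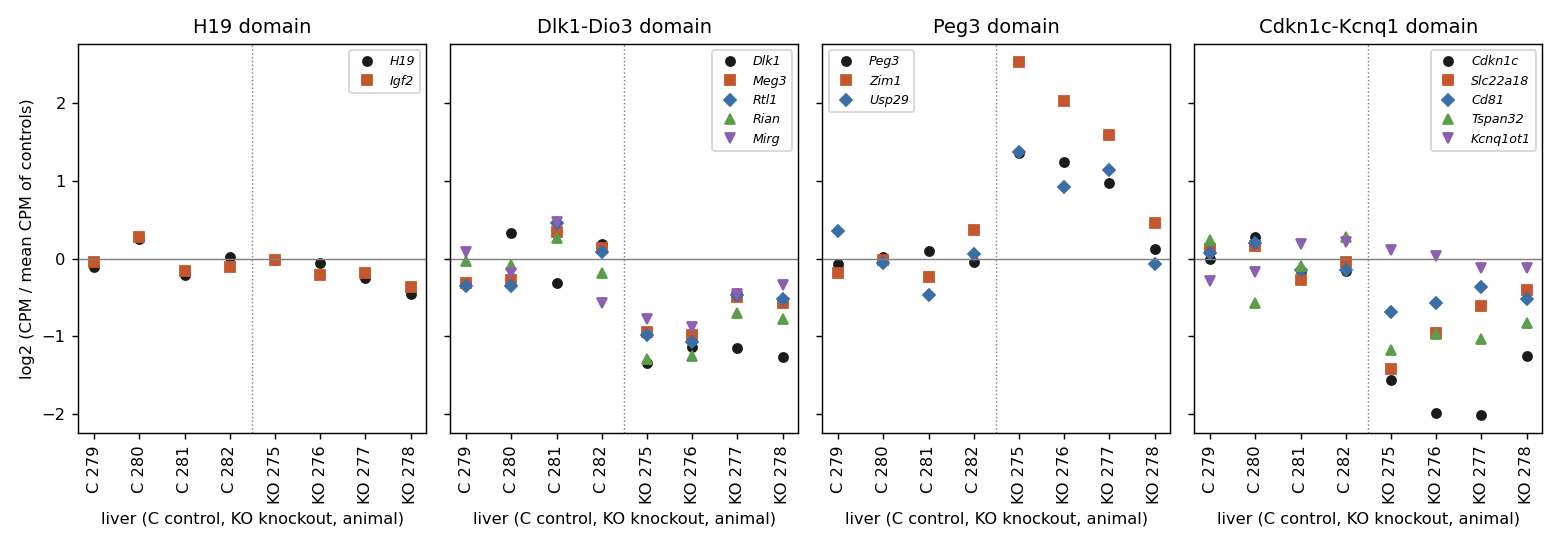
Log2 of each gene's CPM over its control mean (vertical axis) in each liver, controls left and knockouts right of the dotted line, for genes of 4 imprinted domains. The H19 and Igf2 points lie close together, Dlk1, Meg3, Rtl1, Rian and Mirg lie below 0 in every knockout, and the Peg3 domain rises in knockouts 275 to 277, with 278 near the controls.

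Cdkn1c (chromosome 7, 143458339 to 143461050, minus strand) encodes p57, an inhibitor of cyclin-dependent kinases that stops the cell cycle. It fell furthest of the 10, by 3.19-fold. Controls 279 to 282 had 94.0, 115, 84.0 and 84.4 CPM, and knockouts 275 to 278 had 31.7, 23.7, 23.3 and 39.4 CPM. Every knockout lay below the lowest control (log2 fold change -1.67, SE 0.17, adjusted p = 5.69e-05), and the call held under all 16 alternatives, at -1.84 to -1.57. Of the 2039 exon bases of Cdkn1c, 625 are shared with the antisense gene Gm44732, where reads cannot be assigned without strand. The cell cycle genes were lower in the same livers, as given above, and so were the erythroid markers; their part in the result was not tested.

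Several neighbours of Cdkn1c in the Kcnq1 domain fell with it. Slc22a18, a membrane transporter gene, was at 11.9 ± 3.42 CPM in knockout and 20.7 ± 2.75 CPM in control livers (log2 fold change -0.80, SE 0.19, adjusted p = 0.00612). Phlda2, a placental growth inhibitor gene, had 0, 4, 8 and 4 counts in knockouts and 10, 25, 28 and 20 in controls (log2 fold change -2.50, SE 0.67, adjusted p = 0.0133). Cd81, a tetraspanin gene, fell by 0.53 on the log2 scale (SE 0.097, adjusted p = 7.75e-04), and Tspan32, a tetraspanin gene of blood cells, fell by 0.999 (SE 0.19, adjusted p = 0.00123). Kcnq1ot1, the paternal noncoding RNA that silences this domain in cis, was at 276 ± 21.5 CPM in knockout and 280 ± 48.7 CPM in control livers (log2 fold change -0.020, SE 0.11, adjusted p = 0.927). Kcnq1 (-0.12), Tssc4 (-0.17), Osbpl5 (0.13) and Nap1l4 (-0.25) did not pass the test. Of the 10 genes of this domain that were tested, Cdkn1c included, 5 fell and 5 did not pass the test.

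Mest (chromosome 6, 30723547 to 30748465, plus strand), which encodes a hydrolase-like protein of growing mesoderm and fat tissue, was at 84.0, 112, 74.7 and 72.9 CPM in controls and at 57.4, 43.3, 59.0 and 56.9 CPM in knockouts. The groups did not overlap (log2 fold change -0.67, SE 0.14, adjusted p = 0.00398), and the call held under all 16 alternatives. Its neighbour Copg2, of the coat of transport vesicles, was at 26.4 ± 4.04 CPM in knockout and 31.5 ± 4.99 CPM in control livers (log2 fold change -0.26, SE 0.14, adjusted p = 0.213). Mest and Copg2 share 912 exon bases on opposite strands, where reads cannot be assigned without strand.

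Plagl1 (chromosome 10, 13060504 to 13131694, plus strand) encodes a zinc finger factor that activates other imprinted genes, H19 and Cdkn1c among them. It was at 80.8, 86.1, 49.2 and 81.5 CPM in controls and at 70.4, 66.5, 63.3 and 64.6 CPM in knockouts. All knockouts lay between control 281 and the other controls (log2 fold change -0.17, SE 0.14, adjusted p = 0.470). Without control 281 the log2 fold change was -0.32 and passed the test (adjusted p = 0.0182). Control 281 was also the highest liver for Meg3, Rian, Mirg and Rtl1.

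Grb10 (chromosome 11, 11930508 to 12038683, minus strand), an adaptor that binds the insulin and insulin-like growth factor receptors and limits their signal, was at 788, 790, 758 and 776 CPM in controls and at 878, 632, 751 and 910 CPM in knockouts. The controls lay within 1.04-fold of each other, while the knockouts spread 1.44-fold to both sides of them (log2 fold change 0.027, SE 0.10, adjusted p = 0.888), and over the alternatives the value ran from -0.046 to 0.12. Ddc, its neighbour, encodes the decarboxylase that makes dopamine and serotonin. It was at 8.70 ± 1.75 CPM in knockout and at 17.4 ± 2.63 CPM in control livers, a fall (log2 fold change -1.002, SE 0.17, adjusted p = 5.15e-04).

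Set against other imprinted genes, the H19 pair and the Dlk1-Dio3 genes gave the following counts; differences between these lists were not tested. Neither of the 2 tested H19 domain genes was called (median log2 fold change -0.19), whereas 5 of the 6 tested Dlk1-Dio3 genes fell (median -0.73). Of 17 imprinted genes beside the other members, 13 could be tested, of which 2 rose and 5 fell (median -0.25). Of 44 imprinted genes in domains that hold none of the 10, 35 could be tested, of which 6 rose and 29 did not pass the test (median 0.11), beside 9.27% higher and 11.4% lower over all tested genes. Several genes in the lists of 17 and 44 are imprinted mainly in tissues other than liver, such as Cd81, Tspan32, Dcn and Gatm in the placenta. Whether each listed gene was imprinted in these livers was not measured.

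The 6 that rose were led by Gatm, of creatine synthesis, at 114 ± 15.01 CPM in knockout and 67.4 ± 6.80 CPM in control livers (log2 fold change 0.76, SE 0.10, adjusted p = 6.02e-05). Qpct, a glutaminyl cyclase gene, rose by 0.72 (SE 0.13), Airn, the antisense RNA that silences Igf2r, by 0.69 (SE 0.20), and Ppp1r9a, an actin-binding protein gene, by 0.61 (SE 0.095). Dcn, the proteoglycan decorin, rose by 0.58 (SE 0.12), and the amino acid transporter gene Slc38a4 by 0.31 (SE 0.087). The Airn call was lost without knockout 276 (0.50) or 277 (0.63) or control 279 (0.63) or 280 (0.66), and that of Slc38a4 without knockout 276 (0.28) or control 279 (0.26) or 282 (0.28). Igf2r, which clears the Igf2 protein, was at 205 ± 24.4 CPM in knockout and 223 ± 16.5 CPM in control livers (log2 fold change -0.12, SE 0.092, adjusted p = 0.389). Dcn is also a marker of mesenchymal cells.

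**Figure D3:**
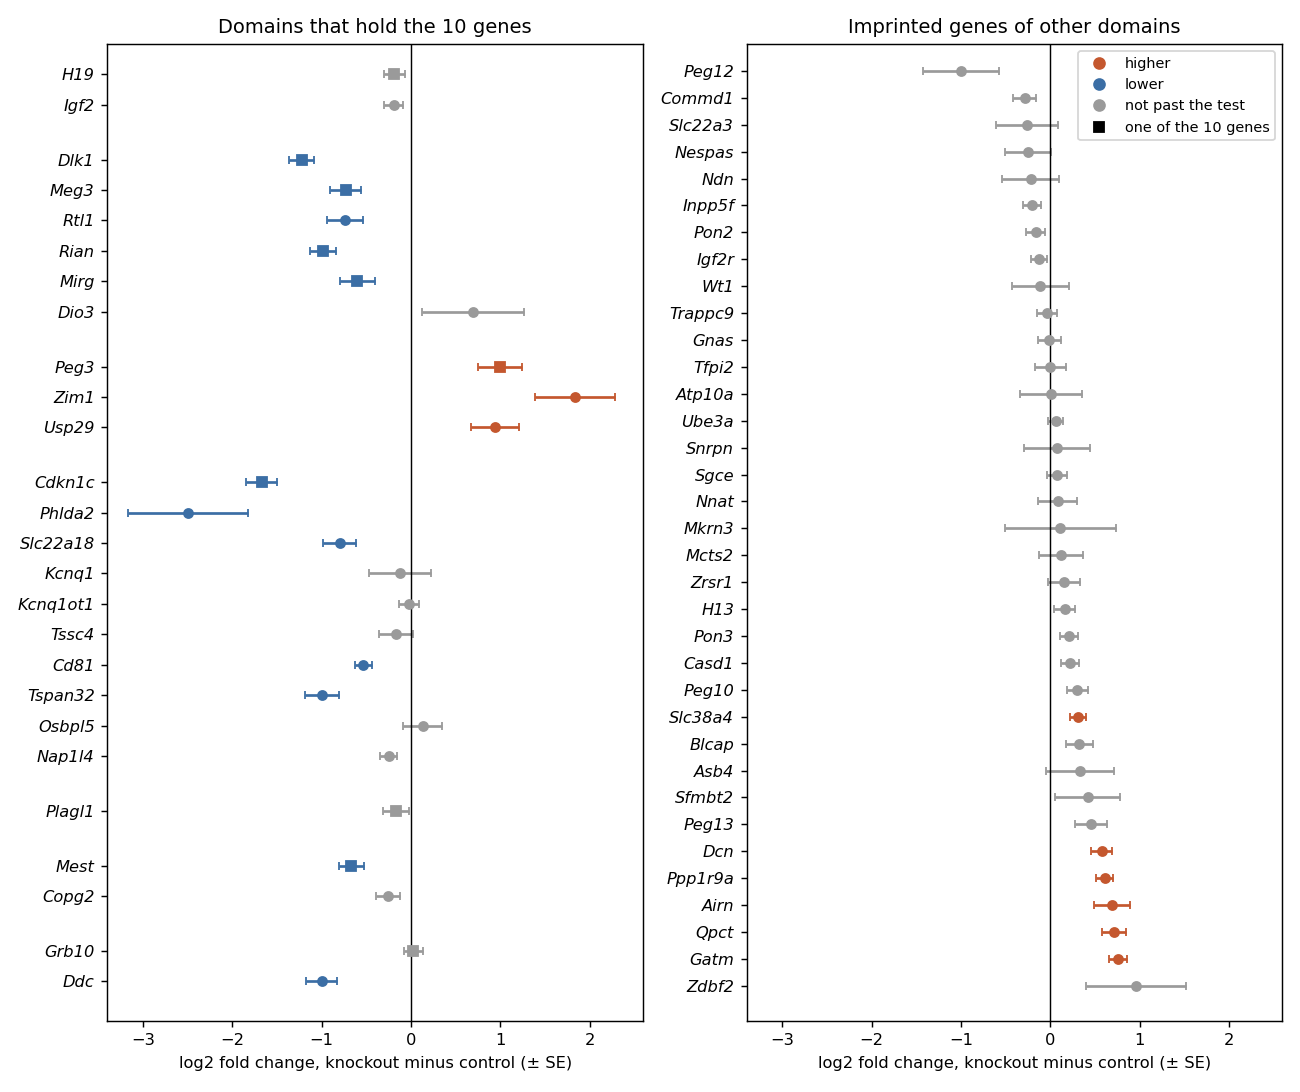
Log2 fold change of knockout over control with its SE (horizontal axis, edgeR) for each tested imprinted gene, left by the domains that hold the 10 genes (squares) and right for other domains, sorted by value. Colour marks genes past the adjusted p threshold of 0.05: the coloured Dlk1-Dio3 and Cdkn1c domain genes lie left of 0, the Peg3 domain right of it, and every coloured gene of the right panel lies right of 0.

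Read ratios between neighbouring genes within each liver do not depend on how libraries are scaled. For 8 pairs of genes the log2 ratio was compared by an exact two-sided permutation test, whose smallest possible p with 4 against 4 livers is 0.0286. H19 to Igf2 gave a log2 ratio of 1.49 ± 0.10 (SD, n = 4) in knockout livers and 1.49 ± 0.089 in controls (difference -0.00020, exact permutation p = 1). Cdkn1c to Kcnq1ot1 was -3.25 ± 0.39 in knockout and -1.57 ± 0.43 in control livers, with no overlap (difference -1.69, exact permutation p = 0.0286, 0.114 after Benjamini-Hochberg adjustment over the 8 pairs). Grb10 to Ddc was 6.51 ± 0.38 and 5.49 ± 0.22, again with no overlap (difference 1.02, exact permutation p = 0.0286, adjusted 0.114). After adjustment, 0.114 was the smallest p of the 8 pairs.

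Inside the Dlk1-Dio3 domain the ratios overlapped between the groups. Dlk1 to Meg3 was -2.22 ± 0.25 in knockout and -1.74 ± 0.52 in control livers (difference -0.48, exact permutation p = 0.171, n = 4). Rian to Meg3 was -0.94 ± 0.073 and -0.67 ± 0.28 (difference -0.28, exact permutation p = 0.143), and Mirg to Meg3 was -3.68 ± 0.080 and -3.84 ± 0.47 (difference 0.16, exact permutation p = 0.743). In both ratios of maternal RNAs the knockouts lay close together and the controls spread widely. Peg3 to Usp29 differed by 0.057 (exact permutation p = 0.83) and Mest to Copg2 by -0.40 (exact permutation p = 0.114).

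**Figure D4:**
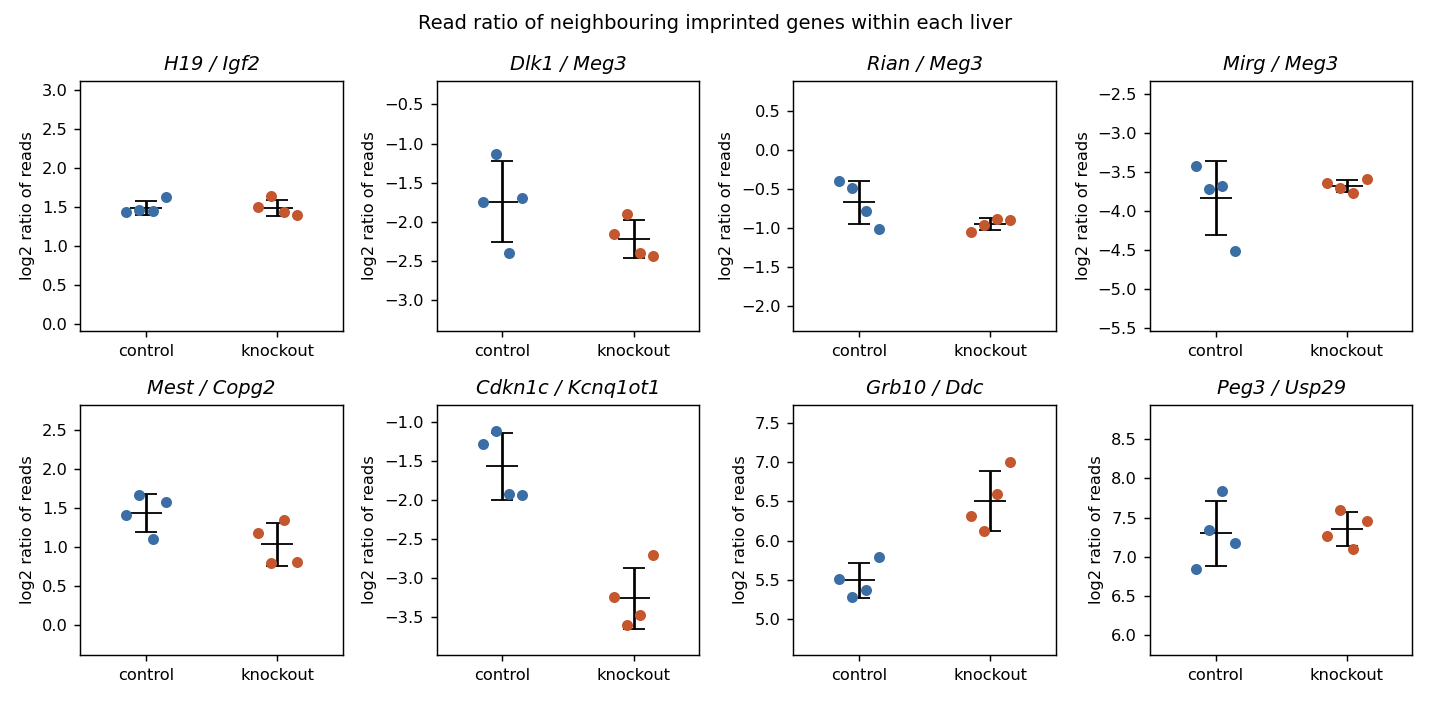
Log2 ratio of read counts (vertical axis; every panel spans the same range of log2 units) of 8 neighbouring gene pairs in 4 control and 4 knockout livers, with mean and SD. Cdkn1c to Kcnq1ot1 and Grb10 to Ddc separate the groups, and H19 to Igf2 sits at the same mean of 1.49 in both.

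By distance between their expression patterns, the nearest gene to H19 among 10785 others was Igf2, and the nearest to Meg3 was Rtl1. The measure is the root mean square difference of log2 CPM over the 8 livers after each gene was centred on its own mean. Only genes with a mean of at least 5 CPM were compared, and those with clone, predicted or numbered-locus names were left out. The distance was 0.084 for H19 and Igf2, followed by Abhd18 (0.089) and Bbox1, of carnitine synthesis (0.089). It was 0.066 for Meg3 and Rtl1, followed by the primase subunit gene Prim2 (0.11) and Wbp1 (0.13). As given above, counts at Rtl1 cannot be assigned to the paternal or the maternal strand. The distance of Meg3 and Rtl1 therefore need not compare a maternal with a paternal transcript. Dlk1 lay nearest to the alcohol dehydrogenase gene Adh4 (0.13), Dop1b (0.16) and Pnkd (0.17), none of them in its domain. These distances describe 8 livers in 2 groups and carry no test.

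Of 22 genes that maintain imprints or remodel chromatin, 21 were tested, of which 9 fell, 2 rose and 10 did not pass the test (median log2 fold change -0.20), beside 11.4% lower and 9.27% higher over all tested genes. Uhrf1, which brings the maintenance methyltransferase to newly copied DNA, fell by 1.33 (SE 0.14, adjusted p = 1.73e-05), and Dnmt1, that methyltransferase, fell by 0.74 (SE 0.097, adjusted p = 4.34e-05). Ezh2, the histone methyltransferase of the Polycomb complex, fell by 0.84 (SE 0.12, adjusted p = 1.14e-04). Uhrf1, Dnmt1 and Ezh2 are also expressed with the cell cycle, whose markers fell in the same livers, and the part of this in their fall was not tested. Zhx2, known as a repressor of fetal genes in the liver after birth, H19 and Afp among them, was at 18.3 ± 0.718 CPM in knockout and 11.4 ± 1.04 CPM in control livers, a rise (log2 fold change 0.68, SE 0.13, adjusted p = 0.00161). It was singled out after its value was seen. Afp was at 9686 ± 2642 CPM in knockout and 13008 ± 1522 CPM in control livers (log2 fold change -0.43, SE 0.19, adjusted p = 0.154). H19 and Afp thus did not pass the test, while the fetal growth gene Gpc3 rose, as given below. The part of Zhx2 in these values was not tested.

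Of 12 fetal growth genes that are not imprinted, 3 rose, 1 fell and 8 did not pass the test (median log2 fold change 0.069). Over all tested genes, 9.27% were higher and 11.4% lower. Igf2bp1 and Igf2bp2, which bind and stabilise messenger RNAs including that of Igf2, rose by 1.02 (SE 0.20, adjusted p = 0.00132) and 0.94 (SE 0.13, adjusted p = 7.30e-05). Gpc3, a cell surface proteoglycan that restrains growth, rose by 0.56 (SE 0.13, adjusted p = 0.00955). E2f3, a cell cycle factor, fell by 0.42 (SE 0.14, adjusted p = 0.0356). Igf2bp1, Igf2bp2 and Dlk1 are all higher in fetal than in adult liver, and in the knockout livers the first 2 rose while Dlk1 fell. The list did not move as one: the 8 that did not pass the test ran from -1.36 for Lin28b (adjusted p = 0.0816) to 0.69 for Mycn (adjusted p = 0.148).

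Markers of other cell types gave the following counts, beside 9.27% higher and 11.4% lower over all tested genes. Of 11 hepatocyte genes, 3 fell, 1 rose and 7 did not pass the test (median log2 fold change -0.087). Their summed level was 85439 to 98790 CPM in knockout and 108600 to 137591 CPM in control livers. Much of that sum is Alb, at 32558 ± 4519 CPM in knockout and 68617 ± 8598 CPM in control livers, so it does not describe the other hepatocyte genes. Of 10 hepatoblast and cholangiocyte genes, 9 were tested and those 9 did not pass (87.3 to 102 CPM and 87.9 to 102 CPM). Of 15 stellate cell and mesenchyme genes, 4 rose and 2 fell (1811 to 1940 CPM and 2064 to 2636 CPM). Of 12 endothelial genes, 9 rose (1412 to 1682 CPM and 1120 to 1203 CPM), and of 12 macrophage genes, 11 rose (1647 to 1917 CPM and 923 to 1060 CPM). None of these lists had a marker at 0 in every library, and their part in the changes of the 10 genes was not tested.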

How the data were processed

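Whole liver RNA of 4 knockout and 4 control pups was sequenced. The authors' deposited table holds raw read counts per Ensembl gene, made with Rsubread 2.20.0 in R 4.4.1 (per the labels' protocols) and featureCounts (per the submitters' processing notes). The protocol names a build GRMm38, taken as GRCm38. Which annotation and strand option were used, and how multiply matching reads were handled, is not given in the sources used here. Symbols, positions and exon lengths came from GENCODE M21 (GRCm38), with 48058 of 48440 rows matched to a symbol.

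The test was that of edgeR 4.0.16 in R 4.3.3, with limma 3.58.1 for voom: filterByExpr defaults (minimum count 10, minimum total 15), TMM scaling, robust quasi-likelihood F-test, Benjamini-Hochberg adjustment, threshold 0.05. The SE is the log2 fold change divided by the square root of F. Log2 CPM used a prior count of 2 and read ratios one of 0.5. No pair of libraries of a group agreed within sampling noise (chi-square per degree of freedom 11.9 to 21.8). Each library is 1 animal. In simulated counts of this comparison over 17858 genes, calls recovered 29.4% of 1.5-fold changes, 68.7% of 2-fold and 87.9% of 4-fold ones, with 8.62% false calls among calls. Over all runs 201 genes were changed by 1.5-fold, 201 by 2-fold and 198 by 4-fold, a far smaller share than the 20.7% called in the data. These rates therefore need not hold for the data. Alternatives tried: scaling by median ratio, upper quartile or library size alone, other low-count filters (none, or at least 1 CPM in 4 libraries), DESeq2 1.42.0, limma-voom with quality weights, dispersion that was not robust, and each library left out.

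The 10 genes, the gene lists and the tests were chosen with earlier results of these data known. Genes to be named were set by a rule: the 10, their ratio partners, Igf2, Dio3, Rtl1, Myo5b and called genes of the imprinted lists. Added to these were the 3 nearest patterns to H19, Dlk1 and Meg3, and the genes with the smallest p in other lists. Not all of the last are printed here. Others, such as Zhx2, Afp, E2f3, Igf2r and the uncalled Kcnq1 domain genes, were named after their values were seen. Figures were drawn with matplotlib 3.10.9.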

Additional observations from a re-analysis of the deposited data

Results flagged for a closer look

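In 38 groups of 4 livers (11 genes and 8 ratios, each in 2 groups), 3 values stood far from the other 3 livers of their group, where chance flags about 1 in 20 groups. Plagl1 was at 49.2 CPM in control 281, against 80.8 to 86.1 CPM in the other controls. Mest was at 43.3 CPM in knockout 276, the remaining knockouts being at 56.9 to 59.0 CPM. The log2 ratio of H19 to Igf2 was 1.62 in control 282, against 1.43 to 1.46 in the other controls.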

How the results depend on the processing

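Over 16 alternatives for each of the 10 genes, 141 of 160 values kept their side of the threshold. Of the rest, 18 lost a call (10 for Mirg and 8 for Peg3) and 1 gained one (Plagl1). Among the 141, 3 values had the other sign, all of Grb10, which was not called. The same was done for 52 other genes set by the naming rule, many of them taken for the smallest p in their list. Of their 828 values, 803 kept their side, 24 lost a call and 1 gained one. In 7 of the values that kept their side, all of Kcnq1ot1, also not called, the sign was the other one. Genes named after their values were seen, such as Zhx2 and Afp, are not among the 52. The number of the 10 that fell was 5 or 6 under every alternative. Without control 281 it was 6, with Plagl1 called in place of Mirg. The number that rose went from 1 to 0 with no low-count filter, and was 0 to 1 with single libraries left out. Among other imprinted genes, the number that rose was 4 to 9 with single libraries left out. Leaving out a library moved the log2 ratio difference of Cdkn1c to Kcnq1ot1 between -1.87 and -1.54 and that of Grb10 to Ddc between 0.854 and 1.15, each with an exact permutation p of 0.0571, the smallest that 3 against 4 livers allow. No paired analysis was possible because the labels give each animal its own number and name no litter. Genes with few counts, such as Dio3, Phlda2 and the microRNA rows, are limited by depth.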
